A study of Rattus norvegicus with 21 samples.

Results

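The major histocompatibility region of rat chromosome 20 was examined in renal cortex as the genes around Tnf. A gene was counted as a member when its lowest annotated exon start lay within 1.5 Mb of that of Tnf and its mean level reached 0.5 CPM (a gene's counts divided by all counts of the library, times 1000000) in at least 1 group. Of 158 genes in this window, 117 were members, from 26404 genes in the annotation. Of the 41 other genes, 7 had 0 counts in every rat used. Among members, 109 reached the level in all 3 groups, 3 only in SD rats and 3 only in SHAM rats. The member nearest the limit had 0.556 CPM in its highest group, and the nearest gene left out had 0.452 CPM.

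Renal cortex was taken from male rats at 37 weeks of age in 3 groups. Sprague Dawley rats (SD, n = 6) were the healthy controls. Zucker Diabetic Sprague Dawley rats (ZDSD, a diabetic and obese strain) were either sham-operated only (SHAM, n = 7 of 9 labelled) or sham-operated and then given dietary restriction plus fenofibrate, metformin, ramipril, rosuvastatin and liraglutide (DMT, n = 6). Medical bypass is the name of the DMT group in the labels. SHAM rats 343 and 348, with totals under 1000000 counts, were left out. SHAM and SD rats differed in strain and in disease. The paper describes sham surgery in SHAM and DMT rats and none in SD rats. Strain, disease and surgery cannot be told apart in either comparison with SD rats. Labels mark all SD and SHAM samples, and no DMT sample, as re-analysed from an earlier deposit, so this difference and DMT treatment cannot be told apart either. Libraries held 14502127 to 27597901 counts, at which 3 counts equal 0.109 to 0.207 CPM. Marker genes of kidney and leukocytes were not analysed here, since the identifiers in the files are not paired with symbols. In bulk cortex, fewer cells of a type and less RNA per cell cannot be told apart.

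The major histocompatibility complex of the rat is called RT1. Its class I molecules present peptides from inside the cell to cytotoxic T cells, and its class II molecules present peptides from ingested material to helper T cells. Between class I and class II genes lies the class III part, which holds complement components and Tnf, the gene of a cytokine made mainly by macrophages and T cells. RT1 genes differ between strains in number and in sequence. The reads were mapped to rn5, the assembly of another strain, Brown Norway. The part of mapping to a reference haplotype in the differences between SD and ZDSD rats was not tested. In RefSeq's GRCr8 annotation, 350 genes lie within 1.5 Mb of Tnf, 155 of them protein coding, and 47 symbols start with RT1-. The nearest neighbours of Tnf there are Atp6v1g2, Nfkbil1 and Lta on one side and Ltb, Lst1 and Ncr3 on the other. None of these names could be placed on a member, as 0 identifiers matched. Members other than Tnf are therefore called by the position of their start on chromosome 20 in rn5.

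The sequence upstream of Tnf is shown because the level of this cytokine gene was compared between all groups. The 250 bases before its start in RefSeq (GRCr8, chr20:3626435-3626684, plus strand) are given 5′ to 3′, with the kappa B core in capitals.
Tnf: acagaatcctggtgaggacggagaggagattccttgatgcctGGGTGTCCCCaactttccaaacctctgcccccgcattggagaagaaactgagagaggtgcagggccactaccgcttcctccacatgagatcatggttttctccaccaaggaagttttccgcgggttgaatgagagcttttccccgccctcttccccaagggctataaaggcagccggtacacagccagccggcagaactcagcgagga
The kappa B core, to which NF-kappa B factors bind, was searched as GGGNNNNNCC on both strands. Its 1 match began at base -208 and such a match was present in 42.3% of 33469 promoter windows of this length. A CCAAT box (CCAAT on either strand) began at -174 and was present in 34.0% of windows. The interferon response element core (GAAANNGAAA on either strand) was not matched in this window and was present in 3.41% of windows. These matches describe letters and not sites that are bound.

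The 117 members lay on both strands, 62 on the plus and 55 on the minus strand. Their group means ranged from 0.153 to 449 CPM in SD rats, with a median of 23.2 CPM, against medians of 28.4 CPM in SHAM and 25.8 CPM in DMT rats. Together they held 0.476% to 0.585% of the counts in SD, 0.535% to 0.69% in SHAM and 0.545% to 0.573% in DMT rats. The highest shares were those of SHAM rats 311 (0.69%) and 333 (0.647%), while the other SHAM rats ended at 0.583%. These levels and shares are scaled by library totals. On that scale the median log2 fold-change for SHAM vs SD was 0.22 over members and 0.14 over all genes tested. Per length of exon, the highest mean level was that of the 186-base gene at chr20:5766751-5766936, with 755 CPM per kb in SD, 1120 in SHAM and 1260 in DMT rats. Next was the gene at chr20:7193732-7196332, with 590, 529 and 589 CPM per kb. Its mean level did not pass the test in any comparison (adjusted p = 0.116 for SHAM vs SD, 0.339 for DMT vs SHAM and 0.674 for DMT vs SD, edgeR quasi-likelihood test).

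Differences were tested with edgeR across all 14664 genes that passed its filter, 114 members among them. A gene was called when its Benjamini-Hochberg adjusted p-value was under 0.05 and its fold-change at least 1.3. Between SHAM and SD rats, 19 of 114 members (16.7%) were called, against 18.3% of all genes tested. Of these members 14 were higher in SHAM rats (12.3%, against 10.3% of all genes) and 5 were lower (4.39%, against 7.95%). With libraries scaled by their totals only, 25 were higher and 5 lower (26.3% of members, against 22% of all genes). Without SHAM rats 311 and 333, whose share of counts in the region was the highest of their group, 17 members were called, 9 higher and 8 lower (14.8%, against 14% of all genes). Without SD rat 353, 32 were called, 22 higher and 10 lower, and the share of members (27.4%) was then above that of all genes (20.7%). The median log2 fold-change was 0.09 over members and 0.0056 over all genes. Rats of the groups did not overlap in 12 of 117 members, against 11.0% of all genes at this level.

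For DMT vs SHAM, 6 of 114 members (5.26%) were called, against 11.5% of all genes. All 6 were lower in DMT rats, and 0 were higher by edgeR, against 4.12% of all genes called higher and 7.36% called lower. With a mean of at least 1 CPM required of members, 4 were called, all lower (3.67%, against 11.5% of all genes). At an unadjusted p under 0.05, 12 members were higher and 21 lower (33 of 114, 28.9%, against 33.8% of all genes). DESeq2 called 1 higher and 8 lower (7.89%, against 12.4% of all genes). Without SHAM rats 311 and 333 edgeR called 3 members, 1 higher and 2 lower (2.61%, against 8.55% of all genes), and without SHAM rat 340 it called 10, all lower (8.77%, against 13.4%). The median log2 fold-change was -0.08 over members and -0.0040 over all genes. The groups did not overlap in 4 members, against 7.48% of all genes. For DMT vs SD, 17 of 114 members (14.9%) were called, against 18.2% of all genes. Of these 7 were higher and 10 lower, against 8.01% and 10.2% of all genes. The split became 11 higher and 9 lower when libraries were scaled by their totals only (17.5% of members, against 19.0% of all genes). The groups did not overlap in 13 of 117 members, against 18.5% of all genes. The comparisons share rats and are not independent of one another.

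**Figure D1:**
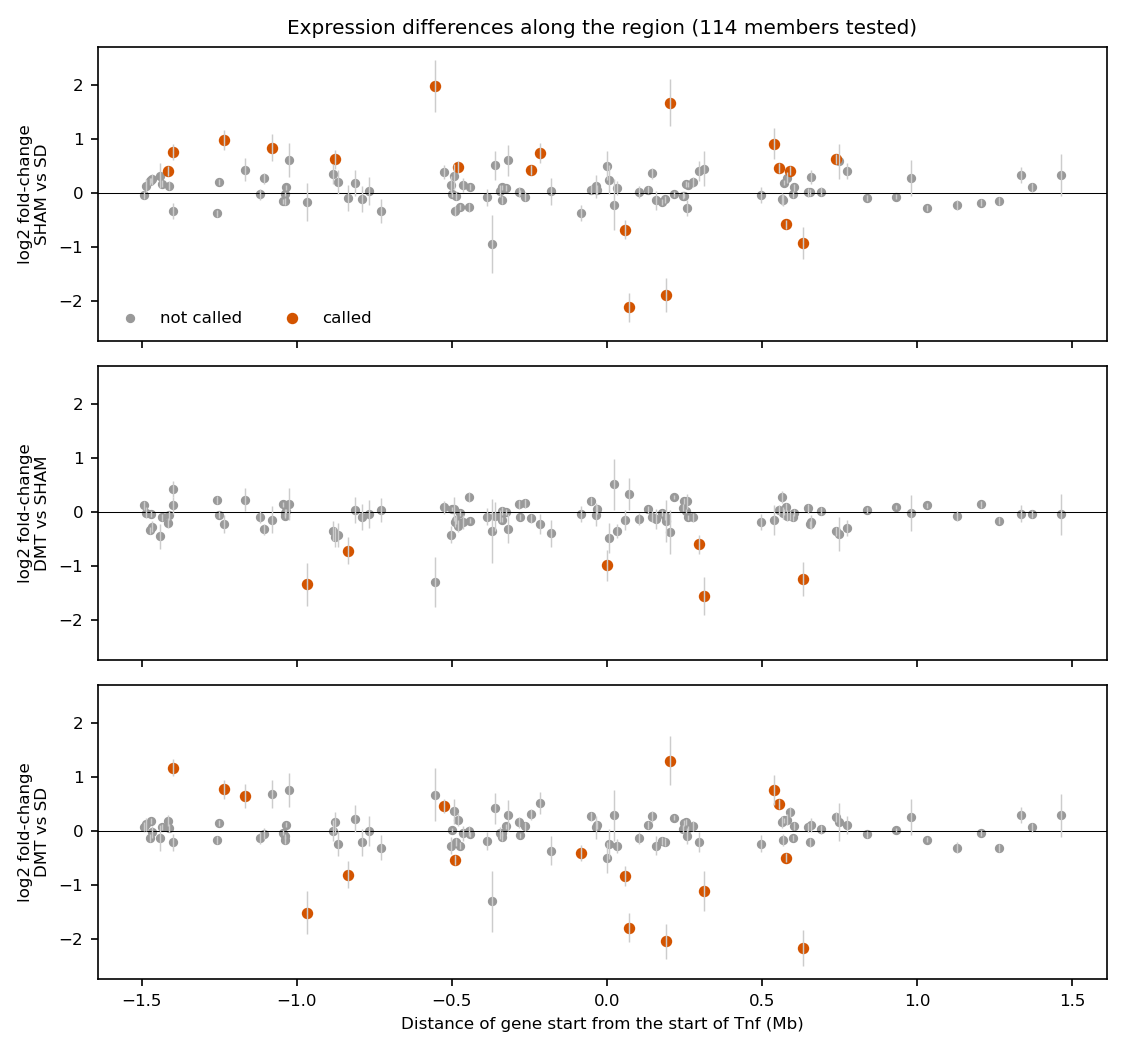
Log2 fold-change (vertical axis) of the 114 tested members against the distance of their start from that of Tnf in Mb (horizontal axis), for SHAM vs SD, DMT vs SHAM and DMT vs SD; bars are standard errors and orange points are called members (19, 6 and 17). Of the 7 members from 1.0 to 1.5 Mb beyond Tnf, 0 are called in any comparison, against 29.7% of all genes called in at least 1. These 7 members are too few to set against that share. In SHAM vs SD, 9 members are called higher and 0 lower before Tnf, and 5 higher and 5 lower beyond it. Over the whole region 12.3% of members are called higher and 4.39% lower, against 10.3% and 7.95% of all genes. The split at Tnf was not tested, since neighbouring genes are not independent. Those called in DMT vs SHAM all lie below 0.

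In all, 28 of 114 members (24.6%) were called in at least 1 comparison, against 29.7% of all genes, and 86 members in none.

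Among members lower in both ZDSD groups, the difference between SHAM and SD rats was largest at chr20:7008109-7019717 on the minus strand, ENSRNOG00000031607. Its level was 2.14, 1.0, 2.24, 2.68, 3.84 and 2.73 CPM in SD rats 352 to 357. The 7 SHAM rats had 0.432 to 1.17 CPM, with a median of 0.506, and the 6 DMT rats 0.6 to 1.01 CPM, with a median of 0.670. Only SD rat 353 reached into the range of the ZDSD rats. The log2 fold-change was -2.12 (SE 0.27, adjusted p = 1.33e-05, edgeR) for SHAM vs SD and -1.79 (SE 0.27, adjusted p = 5.31e-05, edgeR) for DMT vs SD.

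The same direction held for the gene at chr20:7127585-7129404, which was near the limit of detection. It was a member through SD rats only, the group where it was high, so the level rule itself favoured this direction. It had 0.65±0.19 CPM in SD rats, given as mean±s.d., with 10 to 22 counts a rat. SHAM rats had 0.191±0.111 CPM (2 to 7 counts) and DMT rats 0.159±0.0813 CPM (1 to 7 counts). The log2 fold-changes of -1.89 (SE 0.32) and -2.04 (SE 0.33) passed the test in both ZDSD groups (adjusted p = 0.000257 and 0.000113, edgeR). Its neighbour at chr20:7130631-7133328 had 0.618±0.291 CPM in SD, 0.169±0.0764 CPM in SHAM and 0.169±0.0334 CPM in DMT rats. This neighbour was also a member through SD rats only, and was too low to enter the test. Just beyond Tnf, the gene at chr20:6994667-6997483 had 8.17±2.56, 5.58±1.85 and 4.82±0.475 CPM, and was called lower in both (log2 fold-change -0.68 and -0.83, adjusted p = 0.0086 and 0.00283, edgeR).

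Among members higher in both ZDSD groups, the gene at chr20:5535617-5536820 on the minus strand had 25.8 to 41.9 CPM in SD, 49.0 to 102 CPM in SHAM and 59.8 to 106 CPM in DMT rats. Neither ZDSD group overlapped with SD rats. The log2 fold-change was 0.75 (SE 0.15, adjusted p = 0.00113, edgeR) for SHAM vs SD and 1.17 (SE 0.16, adjusted p = 1.83e-05, edgeR) for DMT vs SD. This gene overlaps another on the opposite strand, and the authors counted with strand. At chr20:5701903-5702628, levels were lower, with 1.14±0.265 CPM in SD, 2.48±0.699 CPM in SHAM and 2.04±0.344 CPM in DMT rats. Both ZDSD groups were called higher, with log2 fold-changes of 0.98 (adjusted p = 0.000388, edgeR) and 0.77 (adjusted p = 0.00319, edgeR).

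The gene at chr20:7140226-7141962 on the plus strand, ENSRNOG00000027157, varied widely between healthy rats. SD rats 352 to 357 had 1.65, 5.77, 1.6, 2.14, 0.284 and 0.191 CPM. SHAM rats had 4.94 to 11.8 CPM, with a median of 6.42, and DMT rats 3.92 to 6.80 CPM, with a median of 4.89. Again SD rat 353 alone lay within the range of ZDSD rats, here as the highest and at 7.008 Mb as the lowest of its group. The log2 fold-change was 1.67 (SE 0.44, adjusted p = 0.00671, edgeR) for SHAM vs SD. For DMT vs SD it was 1.3 (SE 0.45, adjusted p = 0.0315, edgeR), a call that was lost in 7 of 28 alternatives. Without SD rat 353 these values were 2.32 and 1.96.

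At chr20:7474639-7478155, the gene showed a similar spread at a high level. SD rats 352 to 357 had 101, 128, 77.5, 85.5, 40.3 and 17.7 CPM, a 7.25-fold range. SHAM rats had 133 to 220 CPM and DMT rats 123 to 144 CPM, a 1.17-fold range. The log2 fold-change for SHAM vs SD was 0.91 (SE 0.28, adjusted p = 0.0161, edgeR) and fell to 0.78 without SHAM rats 311 and 333, where the call was lost (adjusted p = 0.0623). The call for DMT vs SD (0.76, adjusted p = 0.0476, edgeR) was lost in 17 of 29 alternatives.

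Likewise, the gene at chr20:5857674-5878729 had 65.5, 111, 52.9, 54.7, 14.3 and 68.0 CPM in SD rats 352 to 357. Its 7.72-fold range contrasted with 99.0 to 157 CPM in SHAM and 97.4 to 109 CPM in DMT rats. It was called higher in SHAM vs SD (log2 fold-change 0.83, SE 0.25, adjusted p = 0.0173, edgeR), a call lost without SHAM rats 311 and 333 (0.70, adjusted p = 0.0697). For DMT vs SD the adjusted p was 0.0529. For the gene at chr20:6718907-6779286, levels were 12.9 to 40.0 CPM in SD, 43.1 to 73.6 CPM in SHAM and 39.7 to 46.1 CPM in DMT rats. SHAM and SD rats did not overlap there (log2 fold-change 0.74, SE 0.19, adjusted p = 0.00655, edgeR). The span of this gene overlaps others on the same strand, and any fragments on exons shared with them would be missing from its counts. Whether the exons overlap was not tested.

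Among tested members, the largest rise in SHAM rats was at chr20:6381703-6396071 on the minus strand, ENSRNOG00000030729. SD rats 352 to 357 had 11.5, 5.77, 5.63, 7.10, 16.4 and 5.31 CPM. SHAM rats 311 and 333 had 111 and 62.1 CPM, and the other 5 SHAM rats had 11 to 26.7 CPM. DMT rats had 9.73 to 22.3 CPM. The fitted log2 fold-change of 1.97 (SE 0.48, adjusted p = 0.00422, edgeR) for SHAM vs SD was 1.37 without rat 311 and 0.92 without rats 311 and 333, and stayed called. For DMT vs SHAM it was -1.3 (SE 0.46) and did not pass the test (adjusted p = 0.0529, edgeR). Also higher in SHAM rats, the gene at chr20:6058583-6069216 had 14.9±3.51, 25±9.64 and 17.5±2.09 CPM in SD, SHAM and DMT rats. Its call for SHAM vs SD (log2 fold-change 0.62, adjusted p = 0.0144, edgeR) was lost without the same pair of rats (0.32, adjusted p = 0.0697).

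Further members were called for SHAM vs SD. At 7.515 Mb, SD rats had 29.0 to 44.4 CPM, SHAM rats 23.7 to 26.6 CPM and DMT rats 24.4 to 27.4 CPM, so that neither ZDSD group overlapped with SD rats (log2 fold-change -0.58 and -0.49, adjusted p = 5.52e-05 and 0.000248, edgeR). Its neighbour at 7.491 Mb had 55.1 to 99.7, 98.8 to 138 and 105 to 113 CPM and was called higher in both (0.46 and 0.50, adjusted p = 0.00135 and 0.000798, edgeR). At 7.675 Mb levels were 10.4 to 16.9 CPM in SD, 17.4 to 28.1 CPM in SHAM and 14.4 to 18.9 CPM in DMT rats, with a call for SHAM vs SD (0.62, SE 0.09, adjusted p = 6.9e-05, edgeR). The genes at 5.520, 6.458, 6.691 and 7.527 Mb were higher in SHAM vs SD by 0.40 to 0.47 on the log2 scale. Without SHAM rat 311 the differences at 5.520 and 7.527 Mb were 0.30 and 0.34 and fell short of the fold-change required, as did 5.520 Mb without SD rat 354 (0.36), 7.527 Mb without SD rat 357 (0.35) and 6.691 Mb without SHAM rat 334 (0.37).

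Another 4 members were called for DMT vs SD. At 6.446 Mb DMT rats had 45.5 to 65.7 CPM, below all SD rats, which had 71.1 to 83.7 CPM (log2 fold-change -0.53, SE 0.09, adjusted p = 0.000227, edgeR), while SHAM rats had 59.3 to 73.2 CPM. At 6.852 Mb the difference was -0.41 (adjusted p = 0.0469, edgeR), with 17.1±6.62 CPM in SD and 13.4±0.93 CPM in DMT rats. It rested on SD rat 353 (29.9 CPM, the other SD rats 11.5 to 17.8 CPM), without which it was -0.20 (adjusted p = 0.132), and the call was lost in 16 of 28 alternatives. Levels were higher in DMT rats at 6.409 Mb (37.7±3.75 against 26.0±6.14 CPM, 0.47, adjusted p = 0.00948, edgeR). The short gene of 186 bases had 140±38.5 CPM in SD and 235±74.0 CPM in DMT rats (0.65, adjusted p = 0.0338, edgeR), a call lost in 7 of 29 alternatives.

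**Figure D2:**
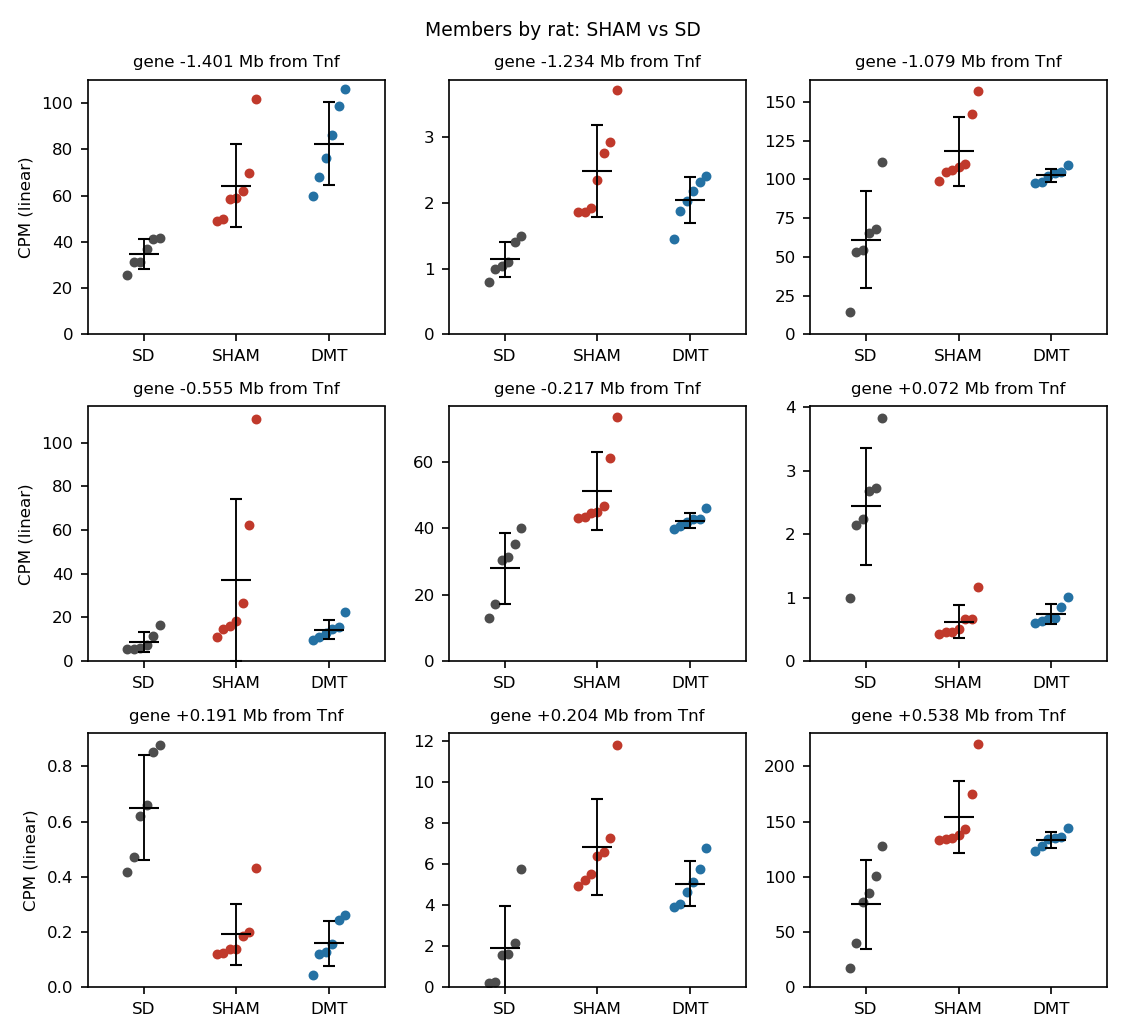
CPM on a linear scale (vertical axis) of 9 members in each rat of the SD (grey), SHAM (red) and DMT (blue) groups, with mean and s.d. in black; each panel is named by the distance of the gene from Tnf. At +0.538 Mb, SD rats range from 17.7 to 128 CPM while the DMT rats lie between 123 and 144 CPM, and at -0.555 Mb the 2 highest SHAM rats have 62.1 and 111 CPM.

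Spread between rats of one group was also measured for all members with a group mean of at least 5 CPM, as the ratio of the highest to the lowest rat. In SD rats the median ratio was 1.42 over 89 members and 1.29 over 11109 genes. The ratio was at least 2 in 16.9% of members and 6.55% of genes, and at least 3 in 8.99% of members (8 genes) and 1.62% of genes. In SHAM rats it was at least 2 in 20.4% of 93 members and 13.1% of genes. In DMT rats it was at least 2 in 5.62% of 89 members and 3.13% of genes, and at least 3 in 1.12% and 1.39%. These shares are descriptions with no test, since neighbouring genes of a rat are not independent. In SD rats, rat 353 was the highest in 58 and rat 357 the lowest in 40 of 114 members. In SHAM rats, rat 333 was the highest in 51 and rat 311 in 36 of 114 members, and rat 340 was the lowest in 45. No DMT rat was the highest in more than 24, or the lowest in more than 27, of 109 members.

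A run of neighbours between 6.053 and 6.208 Mb, chosen after its values were seen, moved together from rat to rat. The members between them at 6.100 and 6.186 Mb, at lower levels, were left out. The gene at 6.186 Mb did not follow the run, with 0 counts in SD rat 353, which allows up to 0.125 CPM, and 0.0834 CPM in SHAM rat 311, the lowest of its group. The summed level of 4 genes that start at 6.123, 6.146, 6.168 and 6.208 Mb was 212, 341, 238, 254, 242 and 122 CPM in SD rats 352 to 357. In SHAM rats it was 474 CPM in rat 311 and 165 to 283 CPM in the others, and in DMT rats it was 193 to 281 CPM. The group means of 235±70.6, 244±109 and 233±39.4 CPM differed by less than the s.d. within each group. The 3 genes beside them, at 6.053, 6.059 and 6.070 Mb, summed to 21 to 38.5 CPM in SD, 29.7 to 78.7 CPM in SHAM and 27.2 to 35.4 CPM in DMT rats. SHAM rat 311 was again the highest (78.7 CPM), followed by rat 333 (55.0 CPM), which lay within the range of the other rats in the first set (228 CPM). After group means were removed, levels on the log2(CPM + 0.5) scale correlated over 19 rats with r of 0.80 to 0.97 between pairs of the first set and 0.82 to 0.89 within the second. Across the sets r was 0.44 to 0.84. Adjacent members of the region had a median r of 0.36 over 116 pairs, and members over 1 Mb apart 0.21 over 2633 pairs. The points share library and depth, so these correlations are given as descriptions.

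**Figure D3:**
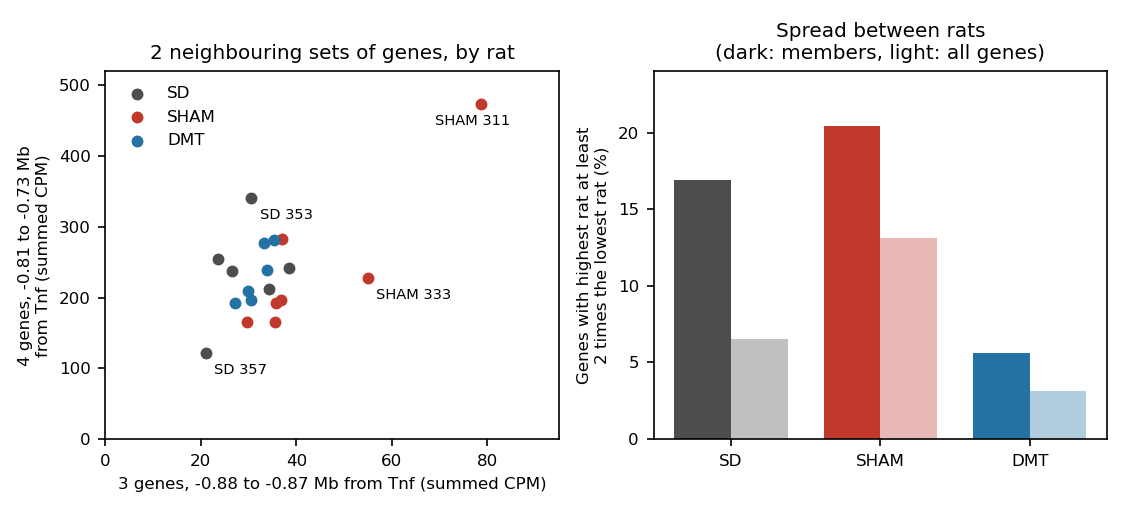
Left, summed CPM of the 4 genes at 6.123 to 6.208 Mb (vertical axis) against that of the 3 genes at 6.053 to 6.070 Mb (horizontal axis), a point per rat, with SHAM rat 311 apart at 474 and 78.7 CPM. Right, percentage of genes with a group mean of at least 5 CPM whose highest rat was at least 2 times the lowest, in members (dark bars) and all genes (light bars), with SD at 16.9% and 6.55%.

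Of the 6 members lower in DMT than in SHAM rats, the gene at chr20:7567671-7585186 on the plus strand, ENSRNOG00000000479, was called in all 3 comparisons. SD rats 352 to 357 had 32.2, 15.8, 33.2, 35.7, 24.2 and 28.9 CPM. SHAM rats had 8.62 to 25.2 CPM, with a median of 17.9, and DMT rats 3.04 to 9.80 CPM, with a median of 6.71. DMT rats did not overlap with SD rats, but reached into the range of the lowest SHAM rats. The log2 fold-change was -1.24 (SE 0.32, adjusted p = 0.00996, edgeR) for DMT vs SHAM and -2.16 (SE 0.33, adjusted p = 6.36e-05, edgeR) for DMT vs SD. For SHAM vs SD it was -0.93 (SE 0.30, adjusted p = 0.0217, edgeR), a call that was lost without SHAM rats 311 and 333 (-0.83, adjusted p = 0.0587) and without SD rat 355 (-0.83, adjusted p = 0.0555).

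Tnf (ENSRNOG00000000837, chr20:6936229-6938839, plus strand) was transcribed at a low level, with 13 to 58 counts in a rat. SD rats 352 to 357 had 1.73, 1.42, 1.24, 0.471, 0.995 and 0.670 CPM. SHAM rats 311, 315, 317, 321, 333, 334 and 340 had 2.42, 1.05, 1.56, 1.66, 2.69, 1.07 and 1.38 CPM. DMT rats 316, 325, 328, 329, 341 and 347 had 0.528, 0.902, 0.727, 0.717, 0.821 and 1.16 CPM. All DMT rats except rat 347 were below the lowest SHAM rat, while SD rats overlapped with both groups. Tnf was 0.503-fold in DMT vs SHAM (log2 fold-change -0.99, SE 0.28, adjusted p = 0.0159, edgeR). This call was lost without SHAM rats 311 and 333, the 2 highest for Tnf (-0.70, adjusted p = 0.0949). Tnf did not pass the test for SHAM vs SD (0.50, SE 0.27, adjusted p = 0.151) or DMT vs SD (-0.49, SE 0.29, adjusted p = 0.205, edgeR).

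The other 4 members called in DMT vs SHAM had low to moderate levels. The gene at chr20:7249282-7252477 had 0.478±0.123 CPM in SD, 0.704±0.424 CPM in SHAM and 0.228±0.088 CPM in DMT rats, with 3 to 9 counts in each DMT rat. Its log2 fold-change of -1.56 (SE 0.35, adjusted p = 0.00373, edgeR) stayed called in all 28 alternatives in which it was tested. It was a member through SHAM rats only, the group where it was high, so the level rule itself favoured this direction. In the gene at chr20:5968763-5971742, levels were 0.82±0.41, 0.78±0.408 and 0.294±0.133 CPM (log2 fold-change -1.34, SE 0.40, adjusted p = 0.0235, edgeR). It was a member through SD and SHAM rats and not through DMT rats, so the level rule favoured lower values in DMT rats here too. Its call was lost without SHAM rat 311 (adjusted p = 0.0706) and without DMT rat 329 (adjusted p = 0.0523). Both genes were also called lower in DMT vs SD (log2 fold-change -1.11 and -1.51, adjusted p = 0.0262 and 0.00764, edgeR), the former losing its call in 5 of 27 alternatives.

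The gene at chr20:7234611-7236508 had 9.33±2.08, 13.5±5.02 and 8.56±0.902 CPM in SD, SHAM and DMT rats. Its log2 fold-change of -0.60 (adjusted p = 0.0245, edgeR) was -0.34 without SHAM rats 311 and 333 (adjusted p = 0.0943). Its call was also lost without DMT rat 316 (adjusted p = 0.0509) and without DMT rat 329 (adjusted p = 0.0556). Lower still, the gene at chr20:6099931-6105533 had 2.12±0.598, 2.18±0.825 and 1.27±0.414 CPM, and its call (-0.72, adjusted p = 0.0461, edgeR) was lost in 15 of 29 alternatives.

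**Figure D4:**
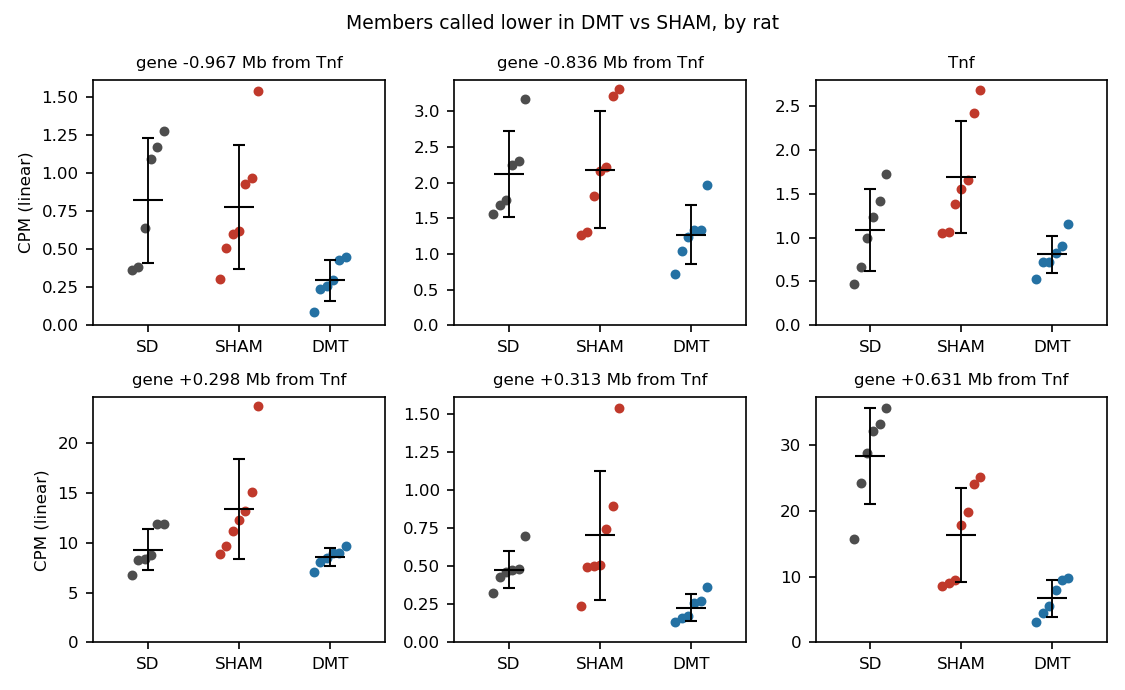
CPM on a linear scale (vertical axis) of the 6 members called lower in DMT vs SHAM, a point per rat, with mean and s.d. in black; panels are named by distance from Tnf. DMT rats have 3.04 to 9.80 CPM at +0.631 Mb against 8.62 to 25.2 CPM in SHAM rats, and Tnf reaches 2.42 and 2.69 CPM in the 2 highest SHAM rats.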

How the data were processed

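Stranded, ribosomal RNA-depleted RNA-seq of renal cortex from 21 rats was used, of which 19 entered the analysis. The authors deposited raw counts of fragments per Ensembl gene for each rat, made by trimming reads with Trim Galore, mapping to rn5 with STAR, and then assigning pairs to exons by featureCounts 1.6.4, which was set to reverse-stranded libraries. Fragments with several positions or several genes were left out of the deposited counts, which lowers the values of near-identical and overlapping genes. Of the members, 4 overlap another gene on the same strand and 9 on the opposite strand, by spans from first to last exon base.

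CPM were computed from these counts by library totals. A quasi-likelihood model of edgeR 4.0.16 (R 4.3.3) was fitted in one fit to the 3 groups, with TMM normalization (factors 0.904 to 1.13) and filterByExpr (minimum count 10, minimum total count 15). The common biological coefficient of variation was 0.158. A call required a fold-change of 1.3 or more in either direction and an adjusted p-value (Benjamini-Hochberg) under 0.05. On simulated data for SHAM vs SD with 14664 genes, 86.5% of 200 changed genes were recovered, with 2.81% of the calls false. The genes raised there had a median fitted log2 fold-change of 1.01, and recovery of smaller changes was not tested. Simulated counts were drawn independently for each gene, with the spread estimated in the same fit. The share of false calls where 1 rat is high over many genes was therefore not tested. Alternatives included DESeq2 1.42.0, other scaling, filters and windows, and leaving out each rat in turn. Nothing in the labels pairs rats of different groups or names separate litters or dates. The p-values set group differences against the spread between these rats. They take the rats as independent, which the labels cannot show.

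By the rule for members, 2 further genes of the window are not reported here. Named genes were Tnf and, in each comparison, the 10 called members with the largest absolute log2 fold-change. In each group the 3 members with the widest range were also named, among those with a group mean of at least 5 CPM. Other members are given by position and were added after their values were seen. The members and lists were chosen with earlier results of these data known. Since 0 identifiers were paired with symbols, lists of class I, class II, antigen-processing, complement, interferon-response, leukocyte and kidney marker genes were not analysed here. Promoter sequence was taken from RefSeq (GRCr8), where only Tnf could be matched by name. Tables and figures were made with Python 3.11.15, pandas 2.3.3 and matplotlib 3.10.9.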

Additional observations from a re-analysis of the deposited data

Results flagged for a closer look

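In groups of 6 or 7 rats, 1 rat stood apart from the others by Dixon's criterion in 14 of 81 sets of values, which were the 26 named members and the region's share of counts in 3 groups. Chance flags about 1 in 20 such sets. Named members were chosen in part for a wide range between rats, and the run from 6.123 to 6.208 Mb after its values were seen, so the number of cases is not compared with chance. Of these cases, 11 were SHAM rats. SHAM rat 311 was high at 6.123 Mb (117 CPM, others 43.6 to 73.4), 6.146 Mb (109 CPM, others 39.3 to 64.1), 6.168 Mb (117 CPM, others 37.0 to 65.7) and 6.208 Mb (131 CPM, others 42.5 to 79.8). It was also high at 6.616 Mb (40.0 CPM, others 9.80 to 17.7) and 7.235 Mb (23.8 CPM, others 8.87 to 15.1). SHAM rat 333 was high at 5.536 Mb (102 CPM, others 49.0 to 69.8), 5.909 Mb (11.7 CPM, others 3.17 to 5.61), 7.008 Mb (1.17 CPM from 17 counts, others 0.432 to 0.667) and 7.140 Mb (11.8 CPM, others 4.94 to 7.29). SHAM rat 315 was high at 7.128 Mb with 0.432 CPM, from 7 counts. SD rat 353 was high at 5.909 Mb (7.31 CPM, others 1.92 to 2.89) and 7.140 Mb (5.77 CPM, others 0.191 to 2.14). DMT rat 329 was high at 6.616 Mb (24.5 CPM, others 10.7 to 14.8). The part of depth, tissue sampling and cell content in these values was not tested.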

How the results depend on the processing

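The counts of called members (19 for SHAM vs SD, 6 for DMT vs SHAM and 17 for DMT vs SD) changed most with the use of the fold-change. They were 6, 1 and 5 when the fold-change was tested in the model (glmTreat; 5.26%, 0.877% and 4.39% of members, against 5.52%, 3.14% and 7.44% of all genes), and 38, 16 and 33 with no fold-change threshold (33.3%, 14% and 28.9%, against 35.0%, 20.3% and 31.9%). With library totals only, 30 members were called for SHAM vs SD, a share above that of all genes. For DMT vs SHAM, 10 were called (8.77% of members), a share that stayed below that of all genes. With this scaling the median log2 fold-change of all genes moved from 0.01 to 0.14 for SHAM vs SD. Without SHAM rats 311 and 333, an alternative chosen after seeing the data, 3 members were called for DMT vs SHAM (1 higher, 2 lower) and 17 for SHAM vs SD, split into 9 higher and 8 lower. When each rat was left out in turn, counts ranged from 19 to 32 for SHAM vs SD (32 without SD rat 353), 4 to 10 for DMT vs SHAM (10 without SHAM rat 340) and 13 to 21 for DMT vs SD. For SHAM vs SD the shares were 16.7% without SD rat 355 and 27.4% without SD rat 353, against 15.5% and 20.7% of all genes. For DMT vs SHAM they were 3.42% without DMT rat 329 and 8.77% without SHAM rat 340, against 9.95% and 13.4%. For DMT vs SD they were 11.4% without SD rat 352 and 17.9% without SD rat 353, against 16.8% and 19.2%. The cause of these changes was not tested. Of 32 results for named genes, 30 of them calls, 19 lost the call under at least 1 alternative, glmTreat included. Over 904 combinations of result and alternative, 79 lost the call and 0 reversed direction. No paired analysis was possible because the labels number the rats individually and tie no rat of one group to a rat of another. At these depths, genes under 1 CPM rest on few counts, and differences there carry a wide error.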

Other observations

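The gene at chr20:5793665-5795200 was a member through SHAM rats only. It was too low to enter the test and had 3.59 CPM in SHAM rat 333 and 1.42 CPM in SHAM rat 311. The other 5 SHAM rats had 0.120 to 0.926 CPM, SD rats 0.0799 to 0.292 CPM and DMT rats 0.0856 to 0.359 CPM. These are the same SHAM rats that had the highest share of counts in the region.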
